A study of Mus musculus with 12 samples.

Results

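Liver progenitor-like cells (LPLCs) are the hepatocytes to which the authors gave that name in a deposited table with 1 row per cell. The members were chosen by that name alone and numbered 348 of 6573 annotated hepatocyte cells (5.29%). They coincided with a single cluster, number 7 of 25, so that every cell of cluster 7 was an LPLC. Of the 348 LPLCs, 308 (88.5%) came from 2 pooled 10x libraries and 40 from 4 of the 7 annotated Smart-seq2 libraries.

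In chronic liver injury some hepatocytes switch on genes of bile duct cells while keeping part of their hepatocyte programme, and such cells are called progenitor-like. Sox9, which encodes a transcription factor typical of bile ducts, is the gene by which they are usually traced. Other genes used to recognise them are Spp1, which encodes the secreted protein osteopontin, and those of the surface proteins Cd24a and Epcam. The cells are known to be able to return to a hepatocyte state or to take on bile duct features. Values of single genes were not used here, so the name was not checked against Sox9, Spp1, Cd24a and Epcam. What follows describes where cells so named occurred and which cells lay next to them.

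All hepatocytes were primary cells of mouse liver, taken after perfusion from mice on a normal diet or fed DDC, a compound that blocks haem synthesis, injures the liver and impairs bile flow. The CLO pool and the pool without CLO each joined, in 1 droplet library, cells of 2 Rosa26-mTmG mice on a normal diet (day 0) and of 2 WT mice fed DDC for 7 days, of the strain C57BL/6J;129S6/SvEvTac. The title of the CLO pool gives DDC diet with CLO treatment, and that of the other pool names DDC diet alone. The labels do not spell out what CLO is. Neither the labels nor the table used here tie a pooled cell to its diet. Each pool is therefore 1 sample holding both diets, and LPLCs of the pools cannot be assigned to either from these sources. The Smart-seq2 libraries came from Sox9-EGFP mice, whose GFP reports Sox9, of the strain FVB/N;129S6/SvEvTac. Those used were day 7 of DDC (L4, Z103 and Z104, replicates 1, 2 and 3), mixed days (L3 and L5 of day 3 and day 7, Z102 of day 0 and day 7) and day 0 (Z101). The strain tag of Z104 reads 129S7 in place of 129S6. Injured livers of these mice were sorted by size and GFP, which selects for or against cells that use Sox9. The titles give 2 mice for all DDC libraries and 1 mouse for the normal diet. The labels give no ages.

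The other states set beside LPLCs were PreLPLCs, named by the authors as the stage before, PostLPLCs1, named as a stage after, and NormalHeps, normal hepatocytes. They held 191, 1169 and 1613 cells. Libraries held 1446 cells in the CLO pool, 4800 in the pool without CLO and between 26 and 82 in Smart-seq2, and no UMI count per cell was used. The 2 hepatocyte pools shared 1 cell barcode, which was not that of an LPLC. They shared 8 barcodes with a pool labelled as liver myeloid cells, of which 1 belonged to an LPLC of the pool without CLO.

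LPLCs were a minority in every library, and their share differed between libraries. They were 111 of 1446 cells in the CLO pool, or 7.68% (95% interval 6.36 to 9.17), and 197 of 4800 in the pool without CLO, or 4.10% (3.56 to 4.70). They were 13 of 82, 12 of 47 and 14 of 45 cells in day 7 replicates 1, 2 and 3. In the day 0 library they were 0 of 43 cells, which allows a share of up to 6.98% by the limit of 3 cells, or 8.22% by the exact interval. Intervals are exact Clopper-Pearson intervals unless another kind is named, and intervals and limits cover counting error only. The mixed libraries held 0 of 39 cells in L3, 0 of 26 in L5 and 1 of 45 in Z102. Within Smart-seq2, all 3 libraries of day 7 alone lay above every other library. The interval of replicate 1 (8.72 to 25.6) overlapped those of L3 (up to 9.03), L5 (up to 13.2) and Z102 (up to 11.8). Shares of the pools are not ranked with these, since the pools came from other mice and hold both diets.

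**Figure D1:**
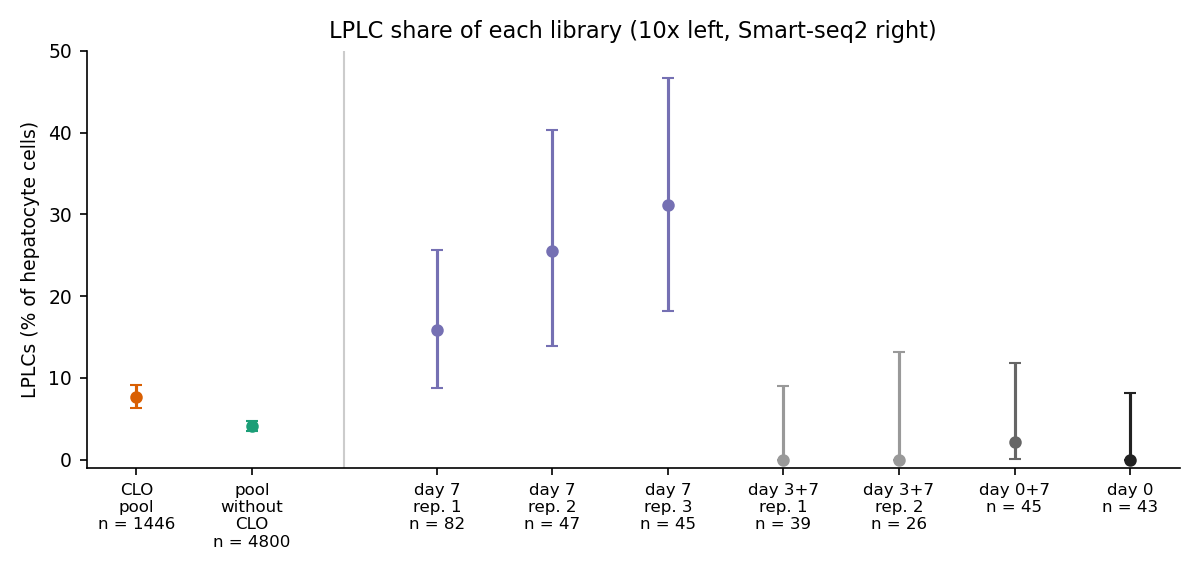
The vertical axis gives LPLCs as a percent of the hepatocyte cells of each library, with exact 95% intervals for counting error, and n is the number of cells. The day 7 Smart-seq2 libraries lie between 15.9% and 31.1%, the CLO pool at 7.68%, the pool without CLO at 4.10% and the day 0 library at 0%.

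The first comparison asked how LPLCs stood in the CLO pool against the pool without CLO, and the answer depended on which cells they were counted against. Against all cells, the LPLC share in the CLO pool was 1.87 times that in the pool without CLO (Katz log interval 1.49 to 2.34). Among cells other than NormalHeps, LPLCs were 10.3% (8.54 to 12.3) of the CLO pool and 5.46% (4.74 to 6.26) of the pool without CLO. Among LPLCs, PreLPLCs, PostLPLCs1 and NormalHeps alone, they were 11.04% (9.17 to 13.1) and 9.48% (8.25 to 10.8), a ratio of 1.17 (0.935 to 1.45) whose interval includes no difference. Each pool was 1 library and a batch of its own, so no test between them was made. How many cells of each pool came from each diet is not given by the labels or the annotation used here. CLO, batch and this mix of diets cannot be told apart, here or in the ratios that follow.

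Set against the stage before them, LPLCs were more numerous in the CLO pool. There were 111 LPLCs to 47 PreLPLCs in the CLO pool, 2.36 (1.68 to 3.32) LPLCs per PreLPLC. The pool without CLO held 197 LPLCs to 135 PreLPLCs, or 1.46 (1.17 to 1.82). The ratio of these was 1.62 (log interval 1.08 to 2.43). PreLPLCs themselves took similar shares of the pools, 3.25% in the CLO pool and 2.81% in the pool without CLO, and their difference of 0.438 points (Newcombe interval -0.507 to 1.57) was within counting error.

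Set against the stage after them, LPLCs were fewer in the CLO pool, although their share of all cells was higher there. PostLPLCs1 took 33.2% of the CLO pool and 11.5% of the pool without CLO, and LPLCs took 7.68% and 4.10%. There were 0.231 (0.188 to 0.284) LPLCs per PostLPLCs1 cell in the CLO pool and 0.357 (0.303 to 0.420) in the pool without CLO, a ratio of 0.648 (0.498 to 0.843). Of LPLCs and PostLPLCs1 together, LPLCs made up 18.8% (15.7 to 22.2) of the CLO pool's cells and 26.3% (23.2 to 29.6) of those without CLO. All 4 PostLPLCs1 clusters had this direction, each set against the same LPLCs, so these ratios are not independent. LPLCs per cell of the cluster were 0.627 in the CLO pool and 0.895 without CLO for cluster 4, a ratio of 0.700 (0.516 to 0.950). The ratio was 0.584 (0.425 to 0.803) for cluster 6, 0.706 (0.50 to 0.996) for cluster 10 and 0.497 (0.289 to 0.856) for cluster 20. The direction was not kept when names were reassigned, giving each cell the name most frequent in its 30 nearest cells on the authors' map. There the ratio was 1.10 (0.857 to 1.41). Counting only LPLCs with mostly LPLCs around them on that map gave 0.821 (0.618 to 1.09), an interval that includes no difference.

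Against normal hepatocytes, LPLCs were again more numerous in the CLO pool, at 0.302 (0.245 to 0.374) per NormalHeps cell, against 0.165 (0.142 to 0.192) in the pool without CLO. The ratio was 1.83 (1.41 to 2.38). NormalHeps clusters did not share 1 direction. The ratio of LPLCs per cell of the cluster was 6.50 (4.53 to 9.31) for cluster 0, the largest, which held 55 cells of the CLO pool and 634 of the pool without CLO. With cluster 0 left out, the ratio for the other NormalHeps was 1.01 (0.771 to 1.33). It was also above 1 for the smaller clusters 14, 22, 23 and 24, which held only 15, 5, 2 and 1 cells of the CLO pool. Their ratios were 5.97 (3.35 to 10.6), 6.76 (2.64 to 17.3), 14.4 (3.43 to 60.2) and 24.8 (3.37 to 182). The ratio was below 1 for clusters 11 and 12, at 0.424 (0.291 to 0.619) and 0.322 (0.222 to 0.467), and 0.891 (0.601 to 1.32) for cluster 15. Every cluster was set against the same LPLCs, so these ratios are not independent and reflect how NormalHeps were divided between the pools.

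**Figure D2:**
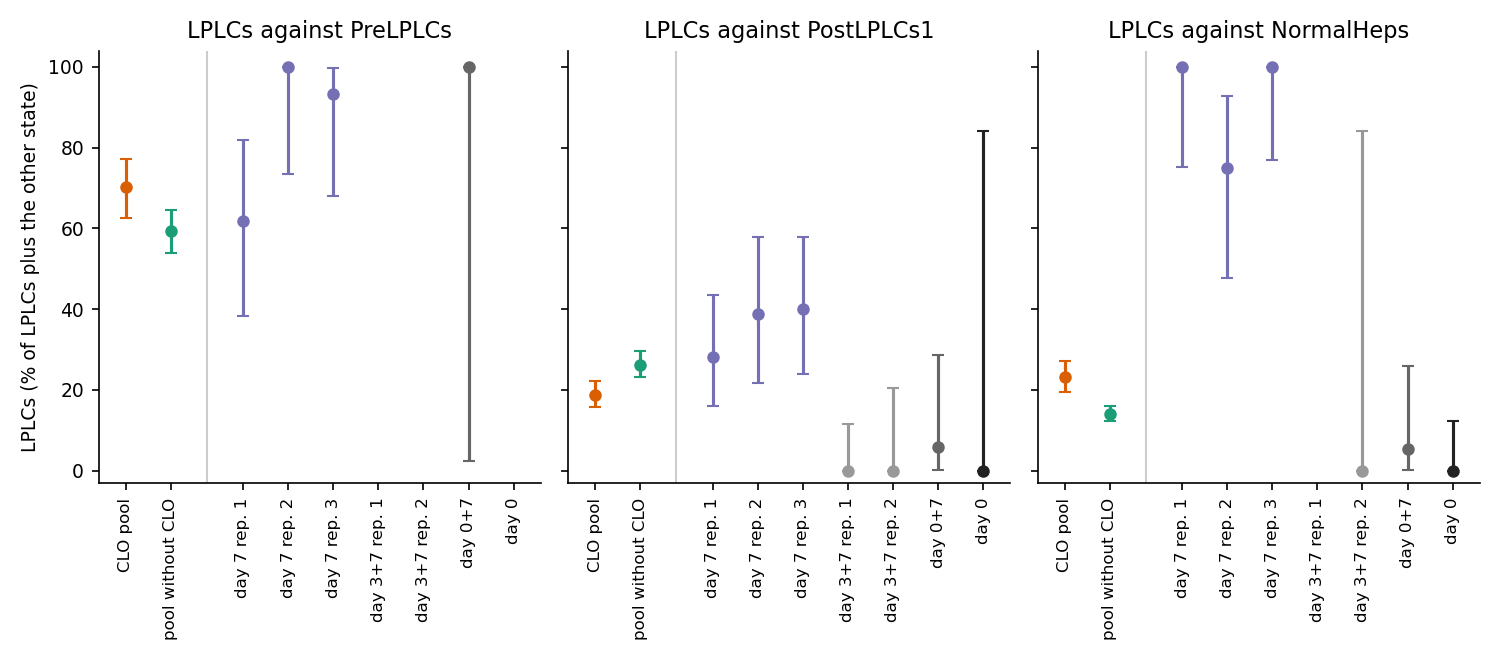
Each panel gives LPLCs as a percent of LPLCs plus PreLPLCs (left), PostLPLCs1 (middle) or NormalHeps (right) by library, with exact 95% intervals for counting error, and no point where a library held neither state. The CLO pool lies above the pool without CLO on the left and right and below it in the middle, at 18.8% and 26.3%.

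The second comparison asked whether Smart-seq2 LPLCs were seen after DDC and on a normal diet. They were seen at day 7 and not at day 0. Their share averaged 24.2% ± 7.72 (SD, n = 3) at day 7, at 15.9% (8.72 to 25.6), 25.5% (13.9 to 40.3) and 31.1% (18.2 to 46.6) in replicates 1, 2 and 3. The exact two-sided permutation test over these 4 libraries gave p = 0.25, the smallest p that 3 against 1 can give, so it cannot pass 0.05. A p at its smallest possible value says little about the spread between libraries. The day 7 libraries came from at most 2 mice fed DDC, so n = 3 counts libraries and not mice. Within batch 1, which held the day 0 library, day 7 replicates 2 and 3 were 28.3 points above day 0. The labels mention sorting by size and GFP for injured livers alone, so that DDC and the sort cannot be told apart.

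At day 7 the LPLCs stood beside many PostLPLCs1 and few PreLPLCs or NormalHeps. LPLCs and PostLPLCs1 numbered 13 and 33 in replicate 1, 12 and 19 in replicate 2, and 14 and 21 in replicate 3. LPLCs were therefore 28.3% (15.99 to 43.5), 38.7% (21.9 to 57.8) and 40.0% (23.9 to 57.9) of the pair, a mean of 35.7% ± 6.44 (SD, n = 3). PreLPLCs numbered 8, 0 and 1 in the same libraries, so that most of the day 7 PreLPLCs came from replicate 1, the only day 7 library of batch 2. NormalHeps numbered 0, 4 and 0. The day 0 library held 28 NormalHeps, 2 PostLPLCs1 and no PreLPLCs.

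The libraries of mixed days had PostLPLCs1 with almost no LPLCs. L3 held 0 LPLCs and 30 PostLPLCs1, which allows LPLCs up to 10.0% of the pair. L5 held 0 and 16, which allows up to 18.8%, and Z102 held 1 and 16, or 5.88% (0.149 to 28.7). The limit of L3 lies below the intervals of all 3 day 7 libraries, while that of L5 lies within the interval of replicate 1. The labels do not tie a cell of these libraries to its day, and L3, L5 and day 7 replicate 1 were 1 batch. Annotated cells of L3 and L5 carried only the numbers 49 to 96 and 57 to 95 in their barcode names. Whether these cells hold both days or 1 of them is not known. Injured livers were also sorted by size and GFP, and day and sort cannot be told apart here. Libraries of day 3 alone had no annotated cells.

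On the authors' map, LPLCs formed a compact group at the edge of PostLPLCs1 and not next to NormalHeps. The map is a UMAP, a 2-dimensional layout of expression profiles, from which clusters are made too, so positions are descriptions with no test, and long distances on it have no fixed meaning. Neighbours are the 15 nearest cells of any state and library. Cells that lie together share neighbours, so counts over cells of the map are not independent, and their intervals may be too narrow. The median LPLC had 86.7% LPLCs among these, and in 94 of 348 LPLCs (27.0%) all 15 were LPLCs. PostLPLCs1 were the next state, with 15.98% of all neighbours of LPLCs. InjuredHeps2, a state of injured hepatocytes, held 3.75%, PreLPLCs held 2.64% and NormalHeps were under 1% in each pool and day 7 library. No other state reached 10%.

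The nearest cell that was not itself an LPLC was a PostLPLCs1 cell for 258 of 348 LPLCs, or 74.1% (69.2 to 78.7). PostLPLCs1 made up 18.8% of all cells that are not LPLCs. LPLCs lying together can share 1 nearest cell, so intervals and limits of these counts may be too narrow. This contact was with part of PostLPLCs1 only. The nearest other cell belonged to cluster 4 for 215 LPLCs, or 61.8% (56.4 to 66.9), and to cluster 10 for 43, or 12.4% (9.09 to 16.3). Clusters 6 and 20 were the nearest for 0 of 348 LPLCs each, which allows up to 0.862%. Seen from the other side, 186 of 436 cells of cluster 4 (42.7%, 38.0 to 47.5) had an LPLC among their 15 nearest cells, as did 43 of 281 in cluster 10 (15.3%), 2 of 383 in cluster 6 and 0 of 69 in cluster 20.

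Some PreLPLCs lay near LPLCs, but none lay among them. An LPLC was among the 15 nearest cells of 40 of 191 PreLPLCs (20.9%, 15.4 to 27.4), a share close to the 19.8% (17.5 to 22.2) of PostLPLCs1. No PreLPLC had mostly LPLCs around it, against 39 PostLPLCs1 cells. A PreLPLC was the nearest other cell of 11 LPLCs, or 3.16% (1.59 to 5.59), where PreLPLCs made up 3.07% of the cells that are not LPLCs. All 11 belonged to the pool without CLO. Other states were the nearest more often than PreLPLCs, with InjuredHeps2 for 32 LPLCs (9.20%), PostLPLCs2 for 26 (7.47%) and ProliHeps, named for proliferation, for 19 (5.46%). These states are larger, with 15.4%, 13.7% and 7.20% of the cells that are not LPLCs. Each was the nearest less often than its share. These are descriptions, since LPLCs lying together can share a nearest cell, and the interval of ProliHeps (3.32 to 8.40) includes its share. NormalHeps had an LPLC nearby in 4 of 1613 cells (0.248%).

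**Figure D3:**
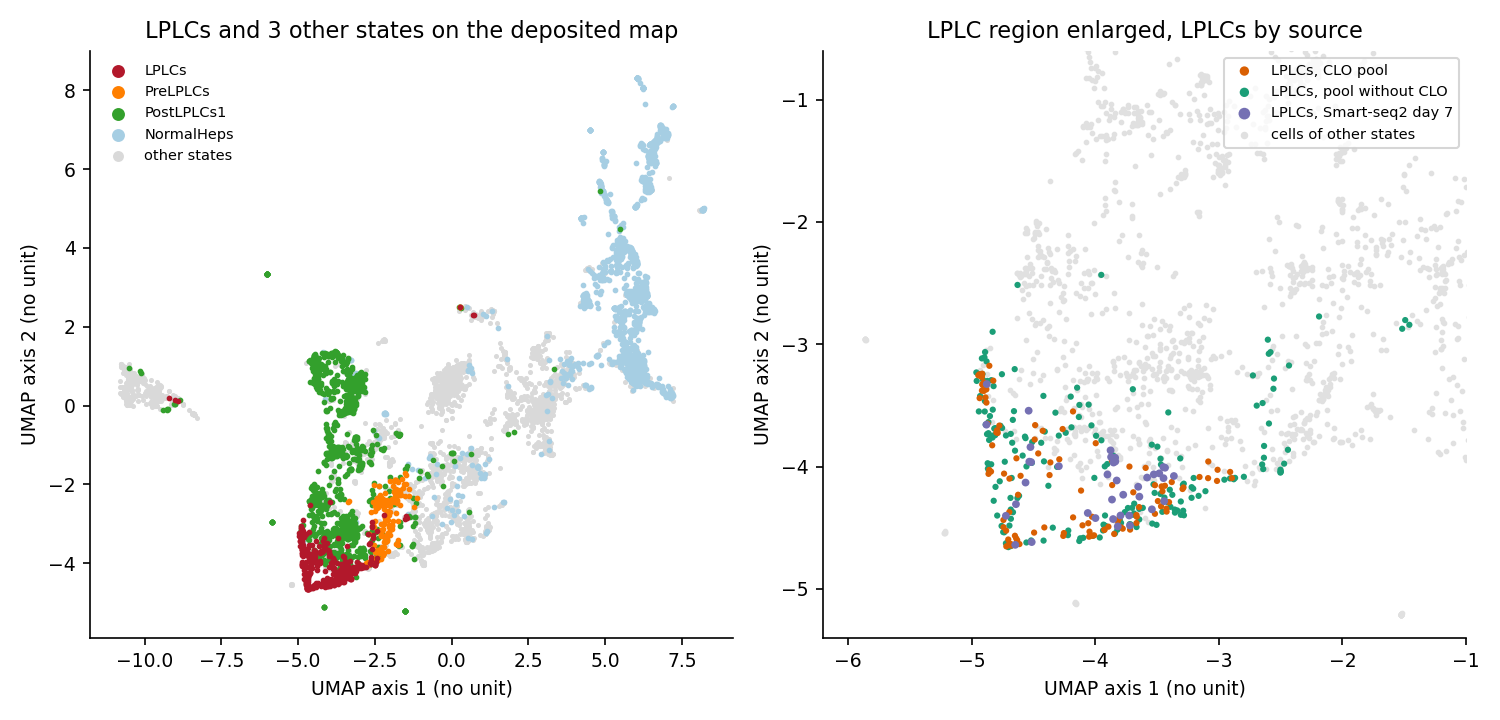
The axes are the deposited UMAP positions, with no unit, and each point is a cell, coloured by state on the left and, for LPLCs in the enlarged view on the right, by source. LPLCs lie at the lower edge of PostLPLCs1, away from NormalHeps, and LPLCs of the CLO pool, the pool without CLO and day 7 Smart-seq2 occupy the same region.

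LPLCs of all sources occupied the same part of the map. They are 1 cluster made on integrated data, which can draw libraries together, so this is a description and no test. Their median position was -4.26 and -4.15 on the 2 axes in the CLO pool and -4.13 and -3.98 in the pool without CLO. In day 7 replicates 1, 2 and 3 it was -3.80, -4.29 and -3.84 on axis 1 and -4.35, -4.04 and -4.08 on axis 2. The median LPLC lay 0.714 map units from the common median, while the medians of PreLPLCs, PostLPLCs1 and NormalHeps lay 2.43, 2.80 and 12.2 units away. The pool without CLO spread widest, with its upper quartile at 1.05 units, against 0.822 in the CLO pool and 0.594 to 0.668 in the day 7 libraries. Among the 15 nearest 10x LPLCs of a day 7 LPLC, 44.1% ± 4.16 (SD, n = 3) came from the CLO pool, which supplied 36.0% of all 10x LPLCs.

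A few LPLCs lay apart from the rest. Of the 348, 6 were more than 3 map units from the common median, 2 of the CLO pool and 4 of the pool without CLO. Of these, 3 cells of the pool without CLO lay at low values of axis 1, and the other 3 at high values. No Smart-seq2 LPLC was among the 6.

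The surroundings of LPLCs differed between the pools on the shared map. More than 50% of the neighbours were LPLCs for 100 of 111 LPLCs of the CLO pool, or 90.1% (83.0 to 94.95), and for 140 of 197 of the pool without CLO, or 71.1% (64.2 to 77.3). The difference was 19.0 points (Newcombe interval 9.91 to 27.0). PostLPLCs1 were 11.2% of the neighbours in the CLO pool and 18.2% in the pool without CLO, and PreLPLCs were 0.240% and 4.53%. The day 7 libraries had 84.6%, 83.3% and 78.6% of LPLCs mostly among LPLCs.

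This difference was not seen when each pool was taken by itself. With neighbours drawn only from the LPLC's own pool, the shares were 81.1% (72.5 to 87.9) in the CLO pool and 78.7% (72.3 to 84.2) in the pool without CLO, 2.40 points apart (-7.34 to 11.2). PostLPLCs1 were then 21.7% of the neighbours in the CLO pool and 10.96% in the pool without CLO, the opposite order to that on the shared map. PreLPLCs kept their order, at 0.661% in the CLO pool and 4.09% in the pool without CLO. PostLPLCs1 also took a larger share of the CLO pool, 33.2% against 11.5% without CLO.

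**Figure D4:**
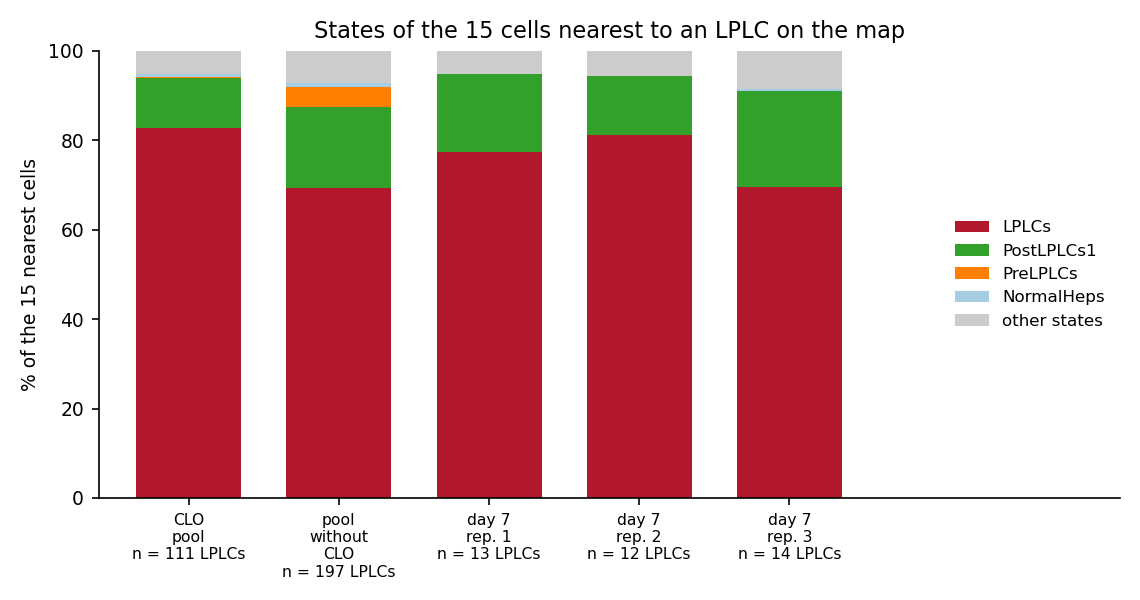
Bars give the states of the 15 cells of any library nearest to an LPLC, as a percent of those neighbours, for each pool and day 7 library, and n is the number of LPLCs. LPLCs take 82.8% in the CLO pool, 69.2% in the pool without CLO and 69.5% to 81.1% in the day 7 libraries, and PreLPLCs are visible only in the pool without CLO.

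The 76 LPLCs that were not mostly among LPLCs lay at the border of the group or apart from it. They were 11 in the CLO pool, 57 in the pool without CLO, 7 in the day 7 libraries and 1 in Z102. Of the 57, 7 had no LPLC among their 15 nearest cells. PostLPLCs1 made up 41.2% of the neighbours of these LPLCs in the CLO pool and 43.9% in the pool without CLO. PreLPLCs made up 14.97% in the pool without CLO and none in the CLO pool. With names reassigned by the 30 nearest cells, 92.8% of the 111 LPLCs of the CLO pool and 74.6% of the 197 of the pool without CLO kept the name. Of the LPLCs that lost it, 31 of the pool without CLO became PostLPLCs1 and 12 became PreLPLCs, against 6 and 0 in the CLO pool. The CLO pool gained 46 cells, 38 of them PostLPLCs1, and the pool without CLO gained 33, 14 of them PostLPLCs1. Counts of LPLCs near this border therefore depended on the naming.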

How the data were processed

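The authors deposited 1 row per cell with its library, platform, batch, cluster, cell type name and UMAP position, a score with no unit, per the file headers. The header also names the clusters as made on integrated data. The submitters' processing notes list Seurat 4.0.1, Cell Ranger 6.0.1, STAR 2.5.2b, HTSeq 0.6.0, UMI-tools, Trimmomatic 0.36, cutadapt 1.14 and build mm10, with no roles. Other deposited fields are names and cluster numbers. Integration can draw cells of different libraries together. The labels and headers state neither cell filters nor doublet handling, and every deposited cell was kept.

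The rule that selects LPLCs, the states compared and the tests were chosen with earlier results of these data known. No gene was named with a value. Other states were to be named from 10% of LPLC neighbours, which only PostLPLCs1 reached. Those under it were chosen after their values were seen. Cells are not replicates, so shares and ratios carry 95% counting intervals (Clopper-Pearson, Katz, Newcombe or log), and a count of 0 the limit of 3 cells. Day 7 and day 0 were compared over libraries by an exact permutation test. The deposited table puts all Smart-seq2 cells, day 0 included, under DDC for 1 week; days were taken from the labels instead. Neighbours used Euclidean distance, with 5 and 50 cells as alternatives to 15. Scipy 1.17.1, numpy 2.4.6, pandas 2.3.3 and matplotlib 3.10.9 ran under Python 3.11.15.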

Additional observations from a re-analysis of the deposited data

How the results depend on the processing

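Of 23 alternative values of the 10x and map results, 15 stayed within the interval or SD of the reported value, 7 moved and 1 reversed. This leaves out 3 map values with a day 7 library left out, which cannot leave 1 SD, and 8 day differences, whose p cannot pass 0.05. The 15 include the values with a PostLPLCs1 cluster left out, which had almost no room to move. The ratios of the single clusters (0.497 to 0.706) already lay almost wholly within the interval (0.498 to 0.843). For the LPLC share, CLO pool over pool without CLO (1.87), the moved values were 1.17 among LPLCs, PreLPLCs, PostLPLCs1 and NormalHeps alone, 2.75 with names reassigned by the 30 nearest cells, and 2.37 counting only LPLCs mostly among LPLCs. It was 1.51 without InjuredHeps1, a state of injured hepatocytes. LPLCs per PostLPLCs1 cell reversed from a ratio of 0.648 to 1.10 with names from the 30 nearest cells, an interval that includes 1, and was 0.821 (0.618 to 1.09) for LPLCs mostly among LPLCs. LPLCs per NormalHeps cell moved from a ratio of 1.83 to 2.71 with those names and to 1.01 without NormalHeps cluster 0. The excess of LPLCs mostly among LPLCs in the CLO pool moved from 19.0 to 2.40 points with neighbours of the own pool only. The day 7 mean of that share (82.2%) was 100% with Smart-seq2 neighbours only. The causes were not tested. Leaving out each day 7 library gave day 7 minus day 0 differences of 20.7 to 28.3 points (exact permutation p = 0.333, the smallest for 2 against 1) and 81.0% to 84.0% for LPLCs mostly among LPLCs. All 8 day differences were above 0, and 2 lay outside 1 SD of the reported 24.2 points (16.4 to 31.9). These were 14.5 points with L3 and L5 counted as day 7 (p = 0.833, exact permutation test) and 32.4 among LPLCs and the 3 states alone. The InjuredHeps1, NormalHeps cluster, PostLPLCs1 cluster and LPLCs mostly among LPLCs alternatives were chosen after seeing the data, as was leaving out day 7 libraries for the map measure. With 12 to 14 LPLCs in a day 7 library, the exact intervals of their shares span 16.9 to 28.5 points. No paired analysis was possible because replicate numbers were given in accession order and pair nothing.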

Other observations

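The numbers in the barcode names of Smart-seq2 LPLCs spread over most of each day 7 library. They ran from 10 to 90 in replicate 1 (median 41.0), from 4 to 47 in replicate 2 (22.5) and from 4 to 50 in replicate 3 (16.5). The medians of the other cells in the same libraries were 51.0, 27.0 and 27.0. L3 and L5, which held no LPLCs, had annotated cells only at 49 to 96 and 57 to 95. The single LPLC of Z102 had number 16, among the 16 PostLPLCs1 cells of that library, which ran from 1 to 25.

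Among the neighbours of that single LPLC of Z102, 13.3% were LPLCs and 53.3% were PostLPLCs1. With names from the 30 nearest cells it became PostLPLCs1, and 1 other cell of Z102 and 1 of L3, both PostLPLCs1 as deposited, took the name LPLC.

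Of the cells of other states, 59 had mostly LPLCs among their 15 nearest cells. These were 39 PostLPLCs1, 8 InjuredHeps2, 5 ProliHeps, 4 PostLPLCs2 and 3 NormalHeps, with no PreLPLCs. Of the PostLPLCs1 with mostly LPLCs around them, 29 belonged to the CLO pool and 6 to the pool without CLO, or 6.04% and 1.09% of the PostLPLCs1 of each pool.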
